A study of Mus musculus with 14 samples.

Results

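The Slc25 genes encode the mitochondrial carriers, a large family of transporters of the inner mitochondrial membrane. The genes were chosen by family name: every gene with a single annotated symbol beginning with Slc25a, other than Slc25a13, Slc25a15 and Slc25a20, together with Ucp1 and Ucp3, which gave 45 of the 22180 genes measured. The rule uses names and no measured value, though the family was picked with earlier results of these data known. Each of the 45 genes had 1 probe set.

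The family was measured in liver total RNA from male C57Bl/6J mice on Affymetrix whole-transcript arrays, 1 array per sample. All mice were 6 weeks old when a 60% high-fat diet (HFD) began and ate it without limit for 4 weeks to become obese, so that every group below shares the diet and no lean group was compared. For 4 more weeks the controls stayed on HFD alone (n = 4 arrays), a second group was given canagliflozin along with HFD (n = 5; labelled 30 mg/kg, 25 to 30 in the protocol), and the last group had its calories cut by 15 to 30% to match the weight of the drug group (n = 5). Canagliflozin blocks SGLT2, the transporter through which the kidney reclaims glucose. The study asked how the drug affects transcription in the liver relative to HFD alone and to weight-matched mice. The labels do not state that each array came from a different mouse, so p-values measure the spread between these arrays.

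The carriers share a fold of repeated units and move metabolites, nucleotides, cofactors or protons between the cytosol and the mitochondrial matrix. In liver they link the compartments of metabolism: citrate leaves the matrix to feed fatty acid synthesis, ADP enters and ATP leaves, and glutamate and aspartate pass through carriers that serve urea synthesis, gluconeogenesis and the redox shuttles. A few members lie elsewhere, Slc25a17 in peroxisomes and Slc25a46 in the outer mitochondrial membrane.

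Values are log2 RMA values, on which a difference of 1 is a change by 2 times. Array medians lay between 4.07 and 4.13, and correlations between arrays between 0.971 and 0.985. The 8 hepatocyte markers measured averaged 10.41 to 14.01. The log2 of their summed level was 16.12 to 16.18 in controls, 16.09 to 16.14 under the drug and 16.12 to 16.17 under restriction. Their means were higher under the drug in 2 of 8 genes against controls and 2 of 8 against restriction, 0 at an unadjusted p under 0.05. Macrophage markers had higher means under the drug in 6 of 7 genes against controls and 7 of 7 against restriction, 0 of them at an unadjusted p under 0.05, with log2 summed levels of 9.28 to 10.06 in controls, 9.54 to 10.04 under the drug and 9.02 to 9.95 under restriction. Neutrophil markers, all 4 with means below 5, were higher in 3 of 4 and 4 of 4, with log2 summed levels of 4.87 to 5.16, 4.97 to 5.35 and 4.84 to 5.08. At that p were 0 and 2 of them, against 6.51% and 6.05% of all genes. At that p, brown adipocyte markers had 2 of 6 genes under the drug against controls and 1 against restriction. Restriction against controls gave 1 of 6, against 3.93% of all genes. White adipocyte and pancreatic acinar markers had 1 of 4 genes in each drug comparison. Cholangiocyte and striated muscle markers had 1 of 4 and 1 of 7, for the drug against restriction only. Means lay below 5 in 4 of 6 brown and 4 of 4 white adipocyte genes. They did so in 3 of 4 acinar, 3 of 4 cholangiocyte and 6 of 7 muscle genes. The part of these cell types in the results was not tested. In whole liver, fewer cells of a type and less RNA per cell cannot be told apart. Of the 45 members, 31 had a mean log2 value of at least 5. The 14 below it are called dim here: Slc25a2, Slc25a14, Slc25a18, Slc25a24, Slc25a27, Slc25a29, Slc25a31, Slc25a36, Slc25a41, Slc25a43, Slc25a53, Slc25a54, Ucp1 and Ucp3. The 95% interval of a member's log2 fold change had a median half-width of 0.25 in either comparison with HFD and of 0.23 for the drug against restriction.

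The 250 bases before an annotated start are shown for 4 members described in full below whose windows held a searched motif. Of these, Slc25a25 had no unadjusted p under 0.05 in any comparison. The bases are from RefSeq on GRCm38.p6, read 5′ to 3′ on the gene's strand, which is the minus strand in all 4. Capitals mark matches, on either strand, to 3 short words. These were the E-box CACGTG, which basic helix-loop-helix factors bind, the full cAMP response element TGACGTCA, and the GC box GGGGCGGGG of Sp1-type factors.
Slc25a22 (chr7:141435376-141435625): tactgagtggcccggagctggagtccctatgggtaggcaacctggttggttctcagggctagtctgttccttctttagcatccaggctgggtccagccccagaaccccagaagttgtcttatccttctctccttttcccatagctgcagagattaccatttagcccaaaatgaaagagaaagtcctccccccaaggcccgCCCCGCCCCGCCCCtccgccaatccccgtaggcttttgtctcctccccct
Slc25a33 (chr4:149774268-149774517): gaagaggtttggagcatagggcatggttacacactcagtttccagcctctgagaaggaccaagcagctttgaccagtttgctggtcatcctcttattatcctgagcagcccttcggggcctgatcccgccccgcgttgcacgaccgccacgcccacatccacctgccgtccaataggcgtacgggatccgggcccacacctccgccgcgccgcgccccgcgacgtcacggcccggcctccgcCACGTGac
Slc25a25 (chr2:32424067-32424316): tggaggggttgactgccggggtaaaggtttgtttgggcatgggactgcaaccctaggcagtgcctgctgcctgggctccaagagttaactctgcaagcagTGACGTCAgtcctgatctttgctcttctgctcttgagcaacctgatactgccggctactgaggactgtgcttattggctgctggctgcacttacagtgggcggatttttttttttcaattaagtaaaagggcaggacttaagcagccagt
Slc25a1 (chr16:17928220-17928469): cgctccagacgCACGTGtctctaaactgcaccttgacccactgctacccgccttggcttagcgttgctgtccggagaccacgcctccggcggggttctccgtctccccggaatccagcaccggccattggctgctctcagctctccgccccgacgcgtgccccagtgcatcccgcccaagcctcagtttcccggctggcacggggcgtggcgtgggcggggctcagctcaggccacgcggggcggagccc
Slc25a22 and Slc25a25 have 3 annotated starts each, and the window shown is the 1 that held a match. The E-box stood before 5 of the 35 members in the promoter table (Slc25a1, Slc25a14, Slc25a31, Slc25a33 and Slc25a36) and before 6.86% of all 27025 genes. The cAMP response element stood before Slc25a25 and Slc25a36 and before 1.77% of all genes, and the GC box before Slc25a22, Slc25a31, Slc25a39 and Slc25a40 and before 11.8% of all genes. The window of Slc25a45 held none of the 3 words, and Slc25a51 and Slc25a32 were not searched. A match describes letters and shows neither a bound site nor a cause.

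Under canagliflozin, Slc25a22, which brings glutamate into the matrix, had the largest difference from HFD controls of the 45 genes, 1.70-fold higher. Slc25a51, which imports NAD, was 1.34-fold higher, Slc25a33, a carrier of pyrimidine nucleotides, 1.31-fold higher and Slc25a32, which carries folate and FAD, 1.28-fold higher. Slc25a45, a less characterised carrier, was 1.20-fold lower. In limma 0 of the 45 had an adjusted p (Benjamini-Hochberg over all genes) under 0.05, as did 0% of all genes. These 5 genes, 11.1% of the family, had an unadjusted p under 0.05, against 6.51% of all genes. The 4 higher genes compare with 3.21% of all genes and the 1 lower gene with 3.3%.

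Slc25a22 measured 8.97, 8.82, 9.75 and 9.65 on control arrays 1 to 4 and 10.01, 10.25, 9.15, 10.52 and 10.38 on drug arrays 1 to 5. Every drug array but replicate 3 lay above all controls, and the controls themselves formed a lower and a higher pair. The log2 difference was 0.76 ± 0.24 (SE), with a 95% interval of 0.27 to 1.26 (limma adjusted p = 0.581). It ran from 0.61 without control replicate 2 to 0.99 without canagliflozin replicate 3, where the limma adjusted p was 0.0672.

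Slc25a51 measured 7.77, 7.50, 7.83 and 7.75 in controls and 8.24, 8.29, 7.76, 8.25 and 8.14 under the drug. Replicate 3 again lay among the controls, and the other 4 drug arrays were above them all. The difference was 0.43 ± 0.15 (SE), with an interval of 0.11 to 0.74 (limma adjusted p = 0.637). This carrier supplies the matrix with NAD, the electron acceptor of the tricarboxylic acid cycle and of fatty acid oxidation.

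For Slc25a33 the control values were 7.16, 7.20, 6.95 and 6.82 and the drug values 7.64, 7.36, 6.94, 7.92 and 7.28, a difference of 0.39 ± 0.15 (SE), with an interval of 0.07 to 0.72 (limma adjusted p = 0.704). For Slc25a32 the control values were 7.25, 6.95, 7.45 and 7.31 and the drug values 7.64, 7.82, 7.13, 7.78 and 7.63, a difference of 0.36 ± 0.15 (SE), with an interval of 0.05 to 0.67 (limma adjusted p = 0.721). In both genes replicate 3 lay within the control range and the other 4 drug arrays above it. Slc25a36, the other pyrimidine nucleotide carrier and dim, differed by 0.07 ± 0.11 (SE).

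Slc25a45 measured 7.59, 7.31, 7.45 and 7.74 in controls against 7.24, 7.01, 7.46, 7.07 and 7.53 under canagliflozin. Drug arrays 1, 2 and 4 lay below every control, and arrays 3 and 5 among them. The difference was -0.26 ± 0.12 (SE), with an interval of -0.51 to -0.01 (limma adjusted p = 0.758). It ran from -0.33 without control replicate 2 to -0.19 without control replicate 4. The unadjusted p was under 0.05 in 10 of 19 alternative settings for Slc25a45, 15 of 19 for Slc25a32, 17 of 19 for Slc25a33, 19 of 19 for Slc25a51 and 19 of 19 for Slc25a22.

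**Figure D1:**
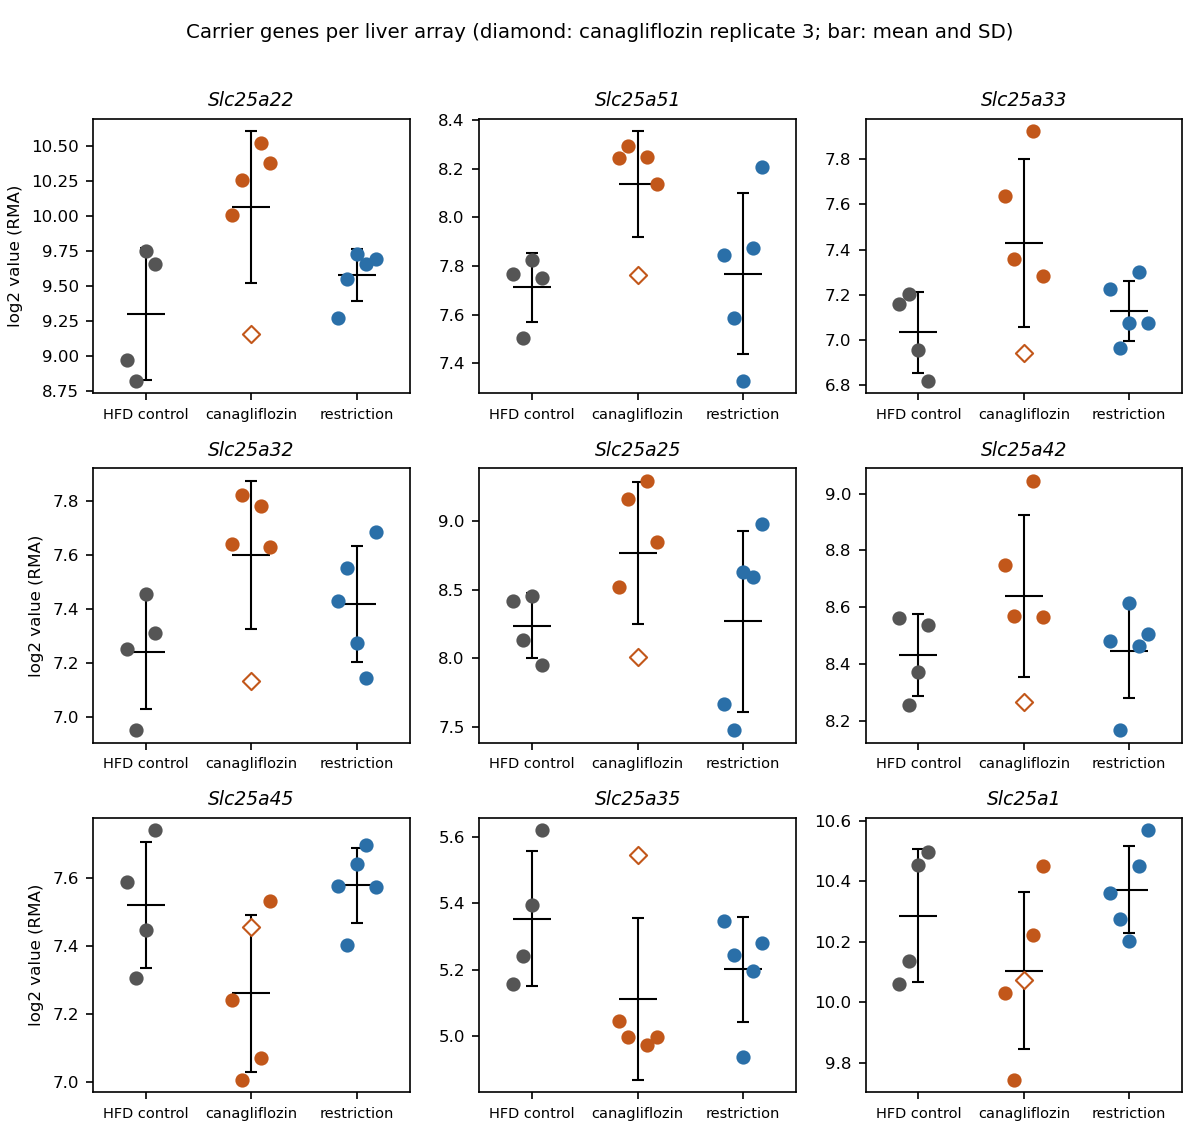
Log2 RMA values on each of the 14 arrays for 9 carrier genes, by group, with bars for the group mean and SD and a diamond for canagliflozin replicate 3. In Slc25a22, Slc25a51, Slc25a33 and Slc25a32 the other 4 drug arrays lie above all 4 controls while the diamond lies within the control range.

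In 6 of the 45 members exactly 4 of the 5 drug arrays lay above all controls, as 3.84% of all genes did. They were Slc25a22, Slc25a25, Slc25a32, Slc25a33, Slc25a42 and Slc25a51. Slc25a35 was the 1 member with 4 of 5 drug arrays below all controls, as 3.89% of all genes had. The array that stood apart was canagliflozin replicate 3 in 6 of 6 and 1 of 1 of these members, and in 30.6% and 30.7% of all genes of the same kinds. This way of counting was chosen after the values were seen. In 0 members did all 5 drug arrays lie above or below all controls, as 0.987% and 0.965% of all genes did.

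Without canagliflozin replicate 3, 10 members passed the unadjusted threshold, 8 higher and 2 lower, against 7.44% of all genes, and 0 passed after adjustment. This array was singled out because it lay apart in these same members, so wider differences in them follow from the choice. The fit gave the highest count of all alternatives, and the share of all genes is no fair measure for it. The 10 were the 5 above with Slc25a25, Slc25a28, Slc25a35, Slc25a42 and Slc25a47. The count was 2 without canagliflozin replicate 4, and 3 without canagliflozin replicate 2 or control replicate 4. For those fits the share of all genes was not computed. Why replicate 3 stood apart was not tested.

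Among the calcium-regulated carriers that exchange ATP-Mg for phosphate, and so set the adenine nucleotide content of the matrix, Slc25a25 had the widest difference. It measured 8.42, 8.13, 8.45 and 7.95 in controls and 8.52, 9.16, 8.01, 9.29 and 8.85 under canagliflozin, a difference of 0.53 ± 0.29 (SE) with an interval of -0.07 to 1.13. The restricted arrays measured 7.67, 7.47, 8.63, 8.59 and 8.98, 2 of them below and 3 above the whole control range, with a mean difference of 0.03 ± 0.29 (SE). Slc25a23, Slc25a24 and Slc25a41 differed from controls by -0.08, 0.04 and -0.10 under the drug.

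Of the carboxylate carriers, Slc25a1 exports citrate to the cytosol, where it becomes the acetyl-CoA of fatty acid and sterol synthesis. It measured 10.06, 10.14, 10.45 and 10.50 in controls, 10.03, 9.74, 10.07, 10.22 and 10.45 under canagliflozin and 10.36, 10.28, 10.20, 10.45 and 10.57 under restriction. The drug and control arrays overlapped, with a difference of -0.18 ± 0.13 (SE) that ran from -0.27 without canagliflozin replicate 5 to -0.09 without canagliflozin replicate 2.

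Slc25a10, which exchanges malate or succinate for phosphate, measured 7.66, 7.99, 8.24 and 8.06 in controls, 7.95, 7.97, 7.86, 8.12 and 8.04 under the drug and 8.14, 7.84, 7.90, 7.94 and 8.16 under restriction. The groups overlapped, and the interval for the drug was -0.24 to 0.24. Slc25a11, which passes oxoglutarate against malate in the malate-aspartate shuttle, differed by 0.09 ± 0.11 (SE), and Slc25a21, a carrier of oxodicarboxylates from lysine breakdown, by 0.07 ± 0.14.

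Of the 7 amino acid carriers, 5 means were higher and 2 lower under the drug, and those other than Slc25a22 lay closer to the controls than Slc25a22 did. Slc25a12, a calcium-regulated aspartate/glutamate carrier, differed by 0.14 ± 0.15 (SE), the glycine carrier Slc25a38 by 0.00 ± 0.12, and Slc25a44, which imports branched-chain amino acids, by -0.13 ± 0.22. Slc25a18, another glutamate carrier, Slc25a2, an ornithine carrier, and Slc25a29, a carrier of basic amino acids, were dim and differed by 0.01 ± 0.09, 0.14 ± 0.17 and -0.07 ± 0.10.

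In the cofactor group 4 of 6 means were higher under the drug. Besides Slc25a51 and Slc25a32, Slc25a42, a coenzyme A carrier, measured 8.56, 8.26, 8.37 and 8.54 in controls against 8.75, 8.57, 8.27, 9.04 and 8.57 under the drug, with a difference of 0.21 ± 0.13 (SE) and an interval of -0.07 to 0.49. Slc25a26, which imports S-adenosylmethionine, differed by 0.09 ± 0.14, Slc25a16 by -0.01 ± 0.11, and the peroxisomal Slc25a17 by -0.11 ± 0.10.

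The adenine nucleotide and phosphate carriers serve ATP synthesis itself. Slc25a5, an ADP/ATP translocase, averaged 10.97 ± 0.04 (SD, n = 4) in controls, 10.98 ± 0.13 (n = 5) under canagliflozin and 11.05 ± 0.15 (n = 5) under restriction. Slc25a3, the phosphate carrier, averaged 8.50 ± 0.07, 8.50 ± 0.11 and 8.52 ± 0.07 in the same order, with an interval for the drug of -0.18 to 0.17. Its SD within groups, 0.0864, was the smallest of the 45, against a median of 0.18 over the members and 0.18 over all genes. Slc25a4 and Slc25a31 encode close relatives of Slc25a5 with which probes may share signal, and they differed by -0.01 ± 0.13 (SE) and 0.11 ± 0.11. Slc25a31, known from the testis, was dim, as were 4 of 4 male germ cell markers.

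Iron and glutathione carriers had 3 of 4 means higher under the drug. Slc25a37, mitoferrin 1, differed by -0.20 ± 0.11 (SE), its relative Slc25a28, mitoferrin 2, by 0.17 ± 0.10, and the glutathione carriers Slc25a39 and Slc25a40 by 0.04 ± 0.11 and 0.00 ± 0.12.

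Ucp1, the uncoupling protein of brown fat, was dim in every group. It measured 3.33, 3.72, 3.61 and 3.66 in controls, 3.84, 3.58, 3.64, 3.77 and 3.56 under canagliflozin and 3.77, 3.72, 3.69, 3.52 and 3.56 under restriction. The groups overlapped, and such values do not show that these livers expressed Ucp1. Of 6 other brown fat markers, Cidea, Cox7a1, Cox8b and Dio2 also averaged below 5, while Elovl3 and Ppargc1a, which hepatocytes express too, averaged 10.54 and 6.94. The log2 of that list's summed level was 9.58 to 10.65 in controls, 10.91 to 11.65 under the drug and 10.01 to 11.86 under restriction. Elovl3, far the highest of the 6, makes up most of that sum, so the ranges mainly reflect Elovl3.

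Ucp3, the uncoupling protein of muscle, measured 3.09, 3.18, 3.18 and 2.78 in controls, 3.04, 3.29, 3.20, 2.99 and 3.68 under the drug and 3.22, 2.86, 3.63, 3.62 and 3.24 under restriction, again with overlap. Of the striated muscle markers 6 of 7 averaged below 5. Slc25a14 and Slc25a27, relatives of the uncoupling proteins, were dim too and differed by 0.02 ± 0.11 (SE) and 0.19 ± 0.15 under the drug.

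Slc25a30, another relative, varied most of the 45 genes between arrays of the same group (SD 0.62). It measured 8.22, 7.76, 6.72 and 7.15 in controls, 7.68, 7.84, 6.92, 8.20 and 7.77 under the drug and 6.67, 7.06, 8.41, 7.18 and 7.93 under restriction. The 3 groups overlapped widely, and the drug's interval was -0.49 to 0.93.

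Among less characterised carriers, Slc25a47, known mainly from liver, measured 11.34, 10.94, 11.60 and 11.01 in controls against 11.58, 11.57, 10.95, 11.66 and 11.43 under canagliflozin. The groups overlapped, with a difference of 0.21 ± 0.15 (SE) that ran from 0.12 without control replicate 2 to 0.34 without control replicate 3. Slc25a35 differed by -0.24 ± 0.13 (SE), Slc25a34 by 0.25 ± 0.17, and Slc25a46, a protein that shapes mitochondria, by 0.18 ± 0.11. Slc25a48, linked to choline import, differed by 0.11 ± 0.11, and the dim Slc25a43, Slc25a53 and Slc25a54 by -0.06, 0.12 and 0.13.

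**Figure D2:**
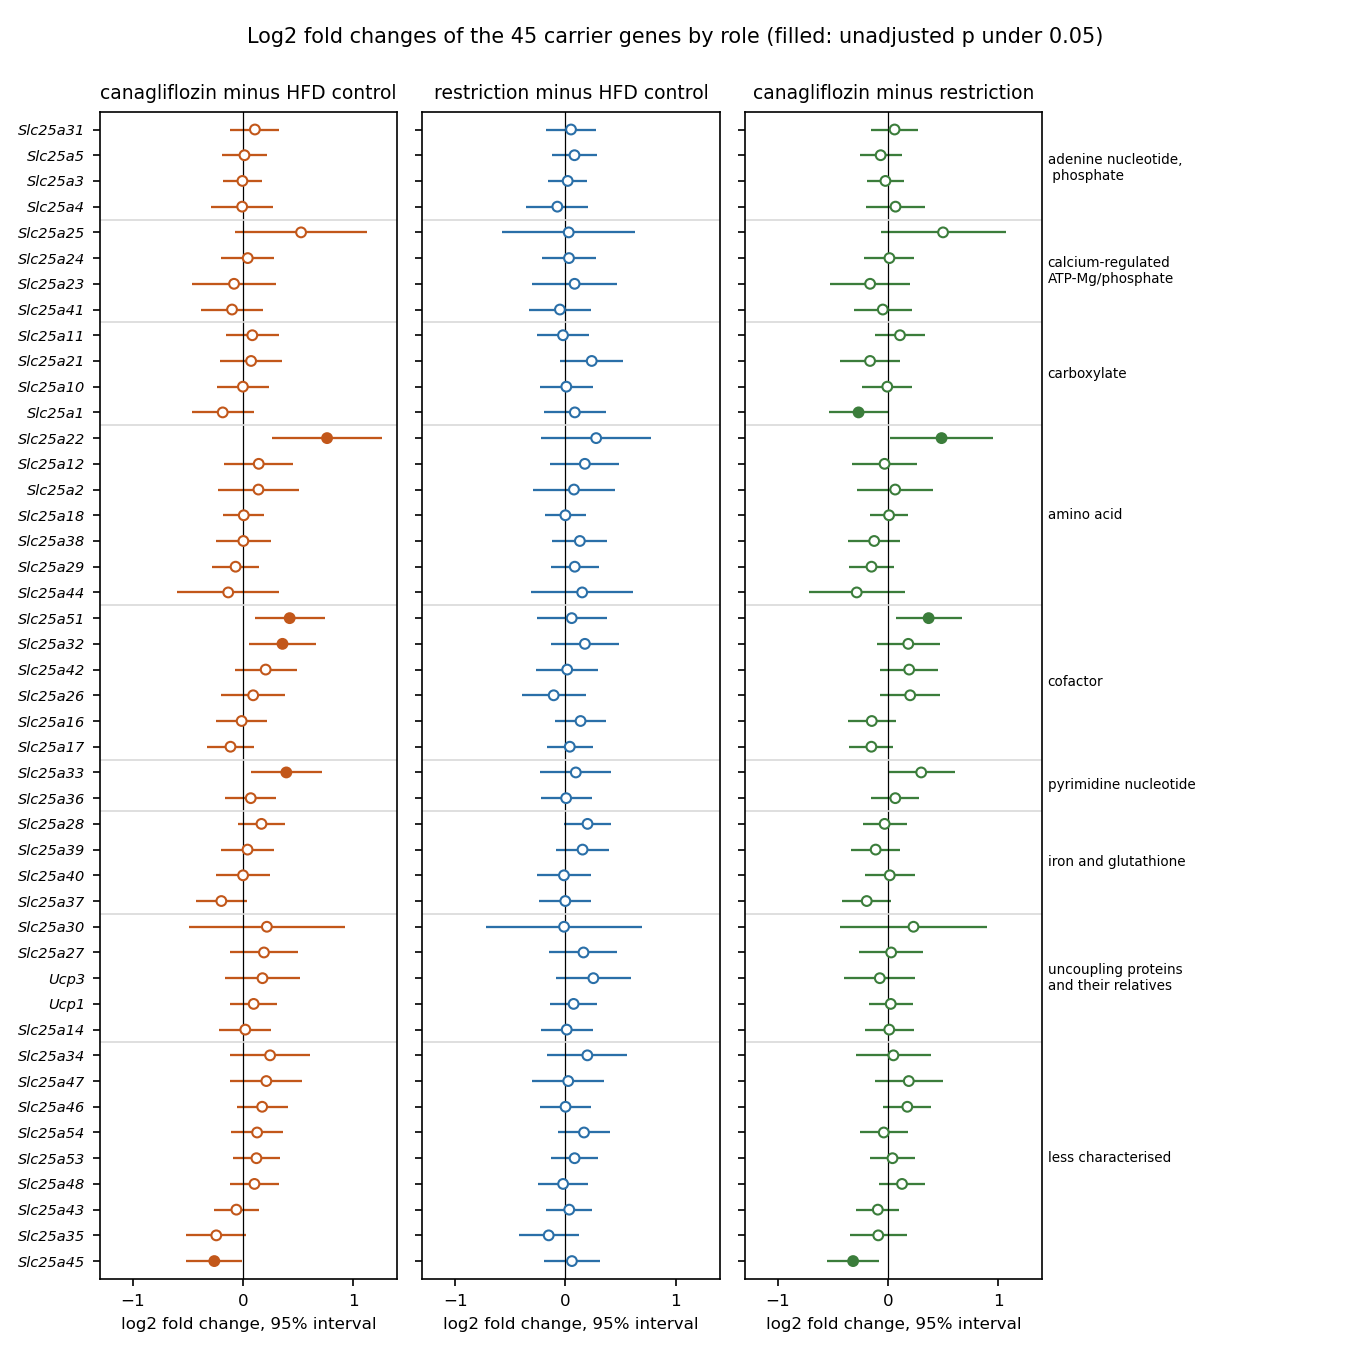
Log2 fold changes of the 45 carrier genes with 95% intervals (horizontal axes) in the 3 comparisons, grouped by role, with filled points for an unadjusted p under 0.05. Filled points number 5 for canagliflozin against control, 0 for restriction against control and 4 for canagliflozin against restriction.

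Over the family, 32 of 45 means were higher under canagliflozin than in controls, against 49.7% of all genes. The median log2 fold change of the family was 0.07, against -0.00085 for all genes. It ran from 0.031 without control replicate 1 to 0.11 without canagliflozin replicate 1. The plot of cumulative shares sets these small shifts beside the distribution of all genes.

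**Figure D3:**
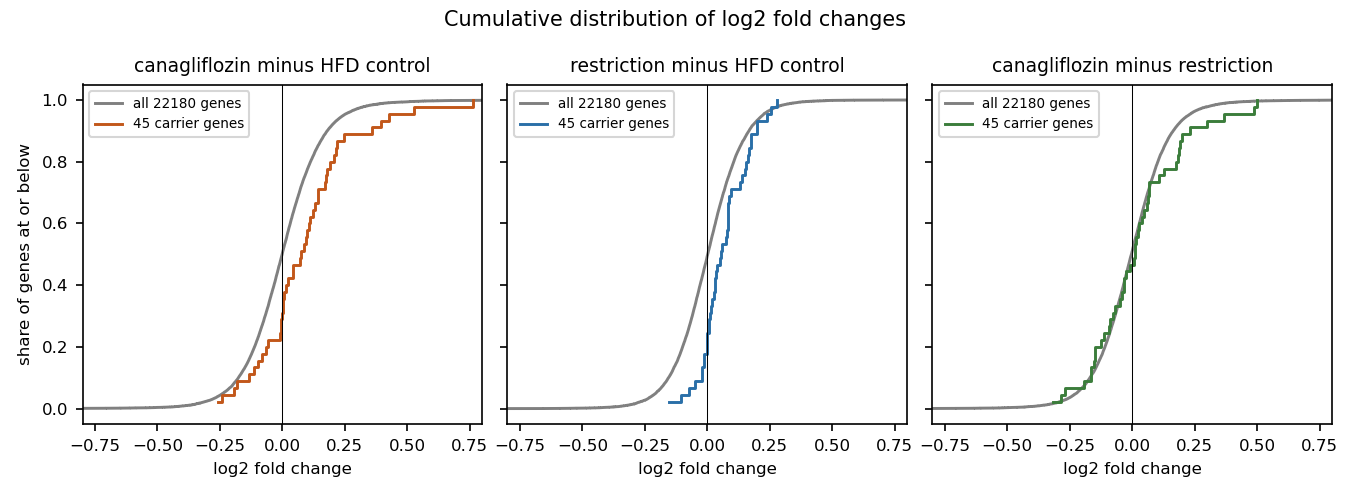
Cumulative share of genes (vertical axes) by log2 fold change (horizontal axes) for the 45 carriers and for all 22180 genes in the 3 comparisons. The family's medians are 0.07 for the drug and 0.06 for restriction against controls, and 0.01 between the treated groups.

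Under caloric restriction no carrier was separated from the HFD controls. In limma 0 members had an adjusted p under 0.05, as did 0% of all genes, and 0 had an unadjusted p under 0.05, against 3.93% of all genes, 2.06% higher and 1.87% lower. In 0 members did the groups not overlap, against 0.703% of all genes higher and 0.694% lower. The widest differences were those of Slc25a22, at 0.28 ± 0.24 (SE), Ucp3, at 0.25 ± 0.16, Slc25a21, at 0.24 ± 0.14, and Slc25a28, at 0.20 ± 0.10. Slc25a28, which brings iron into mitochondria, measured 7.45, 7.20, 7.37 and 7.13 in controls and 7.55, 7.33, 7.45, 7.63 and 7.49 under restriction, with 3 of 5 restricted arrays above all controls.

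Single arrays moved the count at the unadjusted threshold. The share of all genes in the fits without 1 array was not computed. The count was 3 without control replicate 4 (Slc25a12, Slc25a21 and Slc25a39), 2 without control replicate 1 (Slc25a28 and Slc25a54) and 2 without caloric restriction replicate 2 (Slc25a28 and Ucp3). For the genes named under the drug, restriction gave 0.06 ± 0.15 (SE) for Slc25a51, 0.09 ± 0.15 for Slc25a33, 0.18 ± 0.15 for Slc25a32 and 0.06 ± 0.12 for Slc25a45. Slc25a1 differed by 0.09 ± 0.13, Slc25a10 by 0.01 ± 0.11, Slc25a47 by 0.03 ± 0.15 and Ucp1 by 0.07 ± 0.10. The intervals were -0.22 to 0.78 for Slc25a22 and -0.26 to 0.37 for Slc25a51.

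Means under restriction were higher in 35 of 45 members, against 50.5% of all genes, with a median of 0.06 against 0.0016 for all genes. The median was 0.027 without control replicate 2 and 0.089 without control replicate 3. Both comparisons with HFD use the same 4 control arrays.

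Set directly against restriction, where weight was matched, canagliflozin gave 4 members with an unadjusted p under 0.05. Slc25a51 and Slc25a22 were higher under the drug, by 0.37 ± 0.14 (SE) and 0.49 ± 0.22, and Slc25a45 and Slc25a1 were lower, at -0.32 ± 0.11 and -0.27 ± 0.13. The 4 genes are 8.89% of the family, against 6.05% of all genes, 2 in each direction where 3.07% of all genes were higher and 2.98% lower. In limma 0 members had an adjusted p under 0.05, the smallest being 0.753 for Slc25a45, and 0.00451% of all genes did.

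Slc25a22 measured 9.27, 9.55, 9.72, 9.65 and 9.69 on the restricted arrays, below 4 of the 5 drug arrays and above drug replicate 3. Its interval was 0.02 to 0.96. Slc25a51 measured 7.84, 7.59, 7.33, 7.87 and 8.21 on the restricted arrays, of which replicate 5 lay among the higher drug values. Its interval was 0.07 to 0.67, and its difference ran from 0.26 without caloric restriction replicate 3 to 0.48 without caloric restriction replicate 5.

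For Slc25a45 the restricted arrays gave 7.58, 7.40, 7.64, 7.70 and 7.57, all above drug arrays 1, 2 and 4, and the interval was -0.56 to -0.08. Its unadjusted p stayed under 0.05 in 20 of 20 alternative settings, with differences from -0.39 without canagliflozin replicate 5 to -0.25 without canagliflozin replicate 2. For Slc25a1, 3 of 5 drug arrays lay below all restricted arrays, and its difference ran from -0.35 without canagliflozin replicate 5 to -0.18 without canagliflozin replicate 2. The unadjusted p was under 0.05 in 19 of 20 settings for Slc25a51, 10 of 20 for Slc25a22 and 11 of 20 for Slc25a1.

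Slc25a33 differed between the treated groups by 0.30 ± 0.15 (SE), Slc25a25 by 0.50 ± 0.27, Slc25a32 by 0.18 ± 0.14 and Slc25a47 by 0.19 ± 0.15. Slc25a10, Ucp1 and Ucp3 differed by -0.01 ± 0.11, 0.02 ± 0.09 and -0.08 ± 0.15. In Slc25a37 the 5 drug arrays, at 6.98 to 7.24, lay below the 5 restricted arrays, at 7.24 to 7.40, with the closest pair equal to 2 decimals. This 1 member compares with 0.491% of all genes lower without overlap, and 0 members were higher without overlap, against 0.437%. Its difference was -0.19 ± 0.10 (SE). Over the family 24 of 45 means were higher under the drug, against 49% of all genes.

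Without canagliflozin replicate 3, 8 members passed the unadjusted threshold, 7 higher and 1 lower, against 7.02% of all genes, and 0 passed after adjustment. As above, the array was chosen from these members' values, and this fit gave the highest count of all alternatives. The 8 were Slc25a22, Slc25a51, Slc25a33, Slc25a25, Slc25a32, Slc25a42 and Slc25a47, higher, and Slc25a45, lower. Slc25a22 then differed by 0.71 (limma adjusted p = 0.243). Without canagliflozin replicate 2 the count was 2, a fit for which the share of all genes was not computed. The heat map of single arrays shows replicate 3 beside the other drug arrays.

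**Figure D4:**
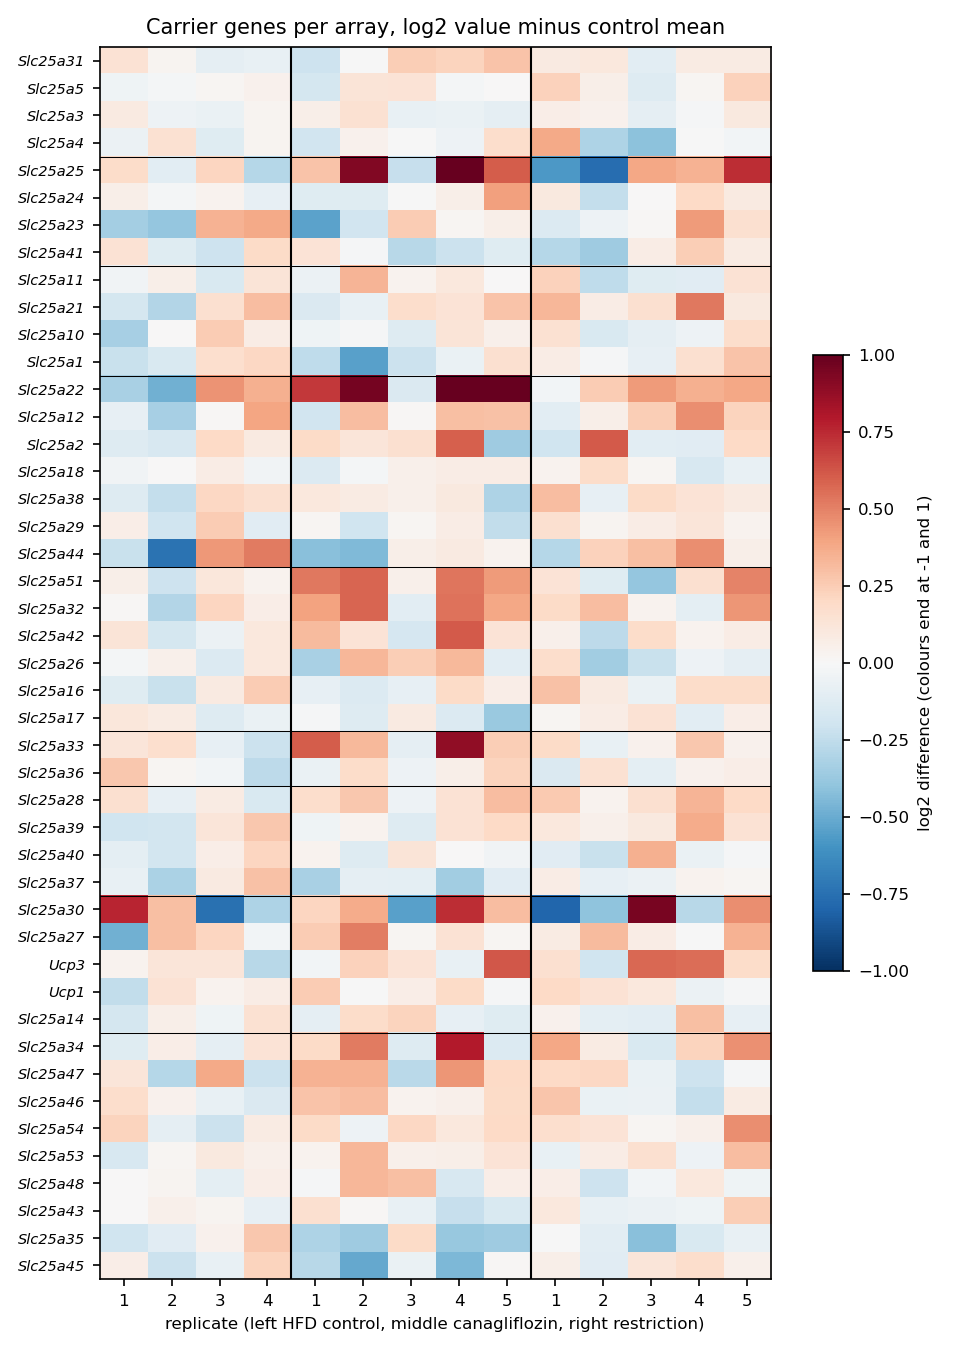
Log2 value minus the control mean for each carrier gene (rows, by role) on each array (columns, by replicate number within HFD control, canagliflozin and restriction), with colours that end at -1 and 1. Slc25a22, Slc25a51, Slc25a32 and Slc25a33 are above the control mean in drug replicates 1, 2, 4 and 5 and, except for Slc25a51, below it in replicate 3.

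Genes that work beside the carriers were taken from 7 lists, of which 61 of 68 genes were measured. Under canagliflozin 31 means were higher and 30 lower than in controls, 0 passed after adjustment in limma, and 5 higher and 4 lower genes had an unadjusted p under 0.05. Over all genes that p was reached by 6.51%, 3.21% higher and 3.3% lower, and 49.7% had a higher mean, against which the counts of single lists, of 6 to 13 genes each, can be read. Restriction gave 2 higher and 1 lower against controls at that p, against 3.93% of all genes, and the drug against restriction 2 higher and 0 lower, against 6.05%. Shuttle enzymes gave 2 of 6 under the drug, Got1, the cytosolic aspartate aminotransferase (0.89 ± 0.23 SE), and Mdh2, the matrix malate dehydrogenase (0.24 ± 0.09). Mdh2 differed by 0.26 ± 0.09 under restriction, and Got1 by 0.46 ± 0.22 between drug and restriction. Citrate and malate enzymes gave 2 of 9, the matrix isocitrate dehydrogenase Idh2 (0.37 ± 0.15) and Acly, which splits the citrate that Slc25a1 exports (-0.36 ± 0.17). Acly measured 9.23, 9.26, 9.96, 9.10 and 9.19 on the drug arrays, with replicate 3 the highest, and 9.48 to 10.05 in controls.

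Inner membrane transporters outside the family gave 2 of 11, the sideroflexin Sfxn5 (-0.26 ± 0.11 SE) and Micu2, a regulator of calcium uptake (-0.25 ± 0.12), and Micu2 differed by -0.27 ± 0.12 under restriction. Outer membrane channels gave 0 of 6 under the drug, and Tspo, a cholesterol-binding protein, differed by 0.27 ± 0.11 under restriction. The machinery that imports carrier proteins had higher means under the drug in 12 of 13 genes and under restriction in 6 of 13, with 1 gene at an unadjusted p under 0.05, the chaperone Timm9 (0.28 ± 0.10 under the drug). Mitochondrial iron and heme genes gave 0 of 8. Among 8 regulators of mitochondrial genes was Ppargc1a, which encodes the coactivator PGC-1α. It differed by 1.14 ± 0.29 under the drug and by 0.86 ± 0.27 between drug and restriction. The transcription factor gene Nrf1 differed by -0.23 ± 0.09 under the drug, -0.17 ± 0.09 under restriction and -0.06 ± 0.08 between them. For Nrf1 all 5 restricted arrays lay below every control, as for 0.694% of all genes. For the inner membrane list's Smdt1 all 5 lay above every control, as for 0.703%. Ppargc1a measured 6.08, 6.60, 6.51 and 6.53 in controls and 7.13, 7.52, 6.66, 8.52 and 8.01 under the drug. All 5 drug arrays lay above every control, with replicate 3 the lowest of them. The same separation from controls was seen for Got1 and for 0.987% of all genes. Among drug arrays replicate 3 was also the lowest for Got1 and the highest for Sfxn5 and Nrf1. It was neither for Mdh2, Idh2, Micu2 and Timm9.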

How the data were processed

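Per the labels' protocols, TRIzol total RNA from liver was used, 250 ng per array. The deposited values are on a log2 scale, 1 per probe set and array, and came from RMA in the Affymetrix Expression Console according to the submitters' processing notes. RMA corrects background and gives all arrays 1 distribution, so a change in total RNA per cell would not be seen. Version and genome build: not given in the sources used here. Arrays hold no read depth, and the number of arrays limits precision.

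Of 41345 probe sets, 23521 carried 1 symbol in the platform's annotation, 1814 several and 16010 none. The probe set with the highest mean stood for a gene, giving 22180 genes, none filtered. All 14 arrays entered 1 fit of group means with lmFit and eBayes of limma 3.58.1 (R 4.3.3; tested on simulated data) for 3 comparisons, with Benjamini-Hochberg adjustment over all genes and a threshold of 0.05. Replicate numbers were not fitted as pairs. Of 13 same-number pairs, 3 had deviations from the group means correlated above 0.1. The median correlation was 0.05 for same-number pairs and -0.019 for other pairs. Whether the numbers mark a pairing was not settled.

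Described in full were, per comparison and direction, up to 4 members with the smallest unadjusted p under 0.05, and always Slc25a1, Slc25a10, Slc25a25, Slc25a47, Ucp1 and Ucp3; up to 3 genes were named per list of other genes. Members, lists and motifs were chosen with earlier results of these data known. Slc25a28, Slc25a30, Slc25a37 and Slc25a42, and the list genes Acly and Ppargc1a, were given array by array after their values were seen. Alternatives were fitting the compared groups alone, a mean of at least 5, other normalizations, variance models and probe set rules, array weights, a replicate block, the deposited order as a covariate, and leaving out each array.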

Additional observations from a re-analysis of the deposited data

Results flagged for a closer look

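Of 135 sets of values, 1 per member and group, 4 had an array far from the rest of its group by the ratio of its gap to the range, where chance at 1 in 20 gives 6.75. Under canagliflozin, replicate 3 had the lowest Slc25a32 at 7.13 (next 7.63) and the highest Slc25a35 at 5.54 (next 5.05), and replicate 5 had the lowest Slc25a38 at 6.43 (next 6.78). Under caloric restriction, replicate 3 had the lowest Slc25a31, a dim probe set, at 2.98 (next 3.18).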

How the results depend on the processing

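The count of members past the adjusted threshold was 0 in all 3 comparisons under every alternative run. Of members with an unadjusted p under 0.05, leaving out 1 array gave 2 to 10 for canagliflozin against control, 0 to 3 for restriction against control and 2 to 8 for canagliflozin against restriction. For restriction, cyclic loess and array weights each gave 1. Except without canagliflozin replicate 3, the share of all genes at the unadjusted threshold was not computed for the alternatives. Over all genes, adjusted calls for canagliflozin against control were 1 with a mean of at least 5, 1 with the deposited order and 0 to 12 with 1 array left out. For restriction against control they were 1 with the deposited order. For canagliflozin against restriction they were 0 with only the groups compared, 2 with the replicate block and 0 to 16 with 1 array left out. The replicate block gave 5, 0 and 5 members at the unadjusted threshold, against 5, 0 and 4 without it. Arrays with the same number also lie near each other in the deposited order. Single values under the alternatives were compared only for the members described in full, not for the whole family. Of these values 597 kept their sign, and 35 changed sign with no unadjusted p under 0.05 before or after. As 0 members passed the adjusted threshold anywhere, none could change its side of it. The causes were not tested. Of the 31 brighter members fitted alone, 21 means were higher for the drug, 23 for restriction and 15 between them. Of all 45, the replicate block gave 29, 31 and 24 higher means. The highest counts under any alternative were 35, 38 and 26 of 45. Dim members had means from 2.99 to 4.93, against array lower quartiles of 2.99 to 3.06 and medians of 4.07 to 4.13, and low signal limits what can be seen of them.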

Other observations

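At the unadjusted threshold only, some carriers had a slope with an array's position in the deposited order. The groups are interleaved there, but each canagliflozin array stands before the restricted array of the same number. The main fit, which gave the group differences above, including those of Slc25a1, held no term for position. With group and position in 1 limma fit, 8 of 45 members had an unadjusted p under 0.05 for position, 7 with a positive and 1 with a negative slope, against 9.52% of all genes, and 0 members and 37 genes passed after adjustment. Slc25a23, an ATP-Mg carrier, had the smallest p, with a slope of 0.058 per position (limma adjusted p = 0.0788), followed by Slc25a1 at 0.038 and Slc25a44 at 0.061. Slc25a12, Slc25a39, Slc25a21 and Slc25a22 were the other positive ones, and Slc25a46 had a slope of -0.022. In controls Slc25a23 measured 9.79, 9.74, 10.48 and 10.51, and Slc25a44 7.90, 7.38, 8.55 and 8.63, with replicates 1 and 2 below 3 and 4 in both. What the order stands for was not tested.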
